A study of Panax japonicus with 15 samples.

Results

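The P and B periods are sampling periods of the fruit of Panax japonicus, a ginseng relative grown as a medicinal herb. The comparison asked which transcripts of the fruit wall stood higher or lower in P than in B. It used 6 of the 15 libraries of the series, 3 labelled P period and 3 labelled B period. The compared features were the 72231 of 462117 transcript clusters with a value above 0 in at least 5 of those 6 libraries. A transcript cluster is an identifier of the form Cluster-number.number. Both groups are fruit of the same species, sampled as fruit wall with the seeds taken out, and the labels name no agent or genotype in either. The other 9 libraries came from the G, R and Y periods and entered the scaling and the estimate of the spread, and show where a level lies. The labels spell out none of the letters, give no order of the periods, and do not say whether fruits or plants were pooled. They call the 3 libraries of a period biological replicates without saying which plants or days they came from. A p-value here thus reflects how far libraries scatter, in the main test over all 5 periods, which may be technical in part. The labelled tissue could not be checked against marker genes, because the table does not pair its identifiers with gene names. For the same reason the transcript clusters are described by their levels and not by what they encode.

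As background, a fruit wall changes colour as it loses chlorophyll and gains carotenoids, which are made in plastids, and anthocyanins, which are flavonoids stored in the vacuole. Those pathways are largely set by how strongly the genes of their enzymes are transcribed, and ripening also shifts transcripts for cell wall softening and for hormones. A transcript profile of the whole fruit wall sums over all of its cell types. Fewer cells of a type and less RNA per cell therefore cannot be told apart here.

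The P libraries were uneven, and this touches each result that follows. P replicates 1, 2 and 3 held 97466, 130422 and 187300 transcript clusters above 0, against 176229, 166597 and 161544 in B replicates 1, 2 and 3. P thus had both the poorest and the richest library, and the groups overlapped (two-sided exact permutation test p = 0.4, where 3 against 3 allows no p below 0.1). The compared transcript clusters held 59.2%, 62.2% and 65.3% of TPM in P replicates 1, 2 and 3. They held 76.0%, 70.5% and 68.3% in B, so all 3 P libraries lay below all 3 B libraries (exact permutation p = 0.1). TPM is a unit that divides reads by transcript length and gives every library the same total. What the compared transcript clusters lacked in P lay in others, among them ones seen in a single library. Transcript clusters above 0 in that library alone held 24.6%, 17.8% and 11.3% of TPM in P replicates 1, 2 and 3, and 3.89%, 6.34% and 10.7% in B replicates 1, 2 and 3. In the 9 G, R and Y libraries this share ran from 2.41% to 9.53%. Its part in the differences between P and B was not tested.

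**Figure D1:**
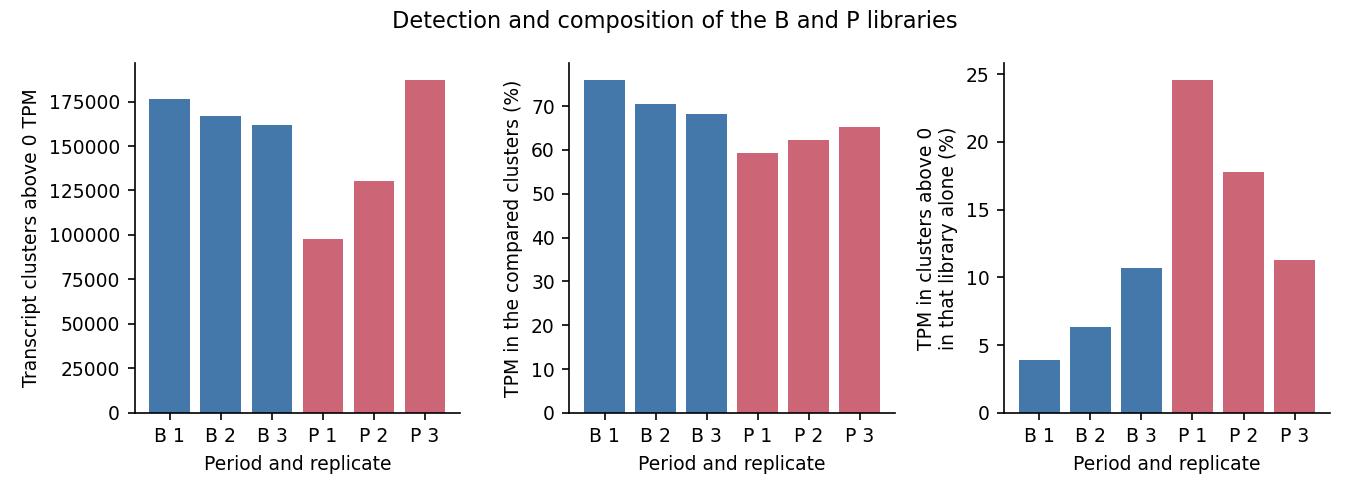
Bars give, for each B (blue) and P (red) library, the number of transcript clusters above 0 TPM, the percentage of TPM in the 72231 compared transcript clusters, and the percentage of TPM in transcript clusters above 0 in that library alone. P replicate 1 has the fewest detected, at 97466, and the largest share in ones seen nowhere else, at 24.6%.

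Because of this composition, values were divided by a median-ratio factor per library, taken over the 33508 features with a value above 0 in each of the 15. The factors were 0.877, 0.902 and 0.906 in P and 1.17, 1.10 and 1.02 in B, so rescaling raised every P library relative to every B library. Levels below are rescaled TPM. A difference is the mean of log2(rescaled TPM + 1) in P minus that in B. The added 1 shrinks the differences of low transcript clusters.

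Most transcript clusters stood at a like level in both periods. Over all 72231 the median difference was -0.07 on the log2 scale, and the middle of the distribution ran from -0.43 at the lower quartile to 0.28 at the upper. On the TPM as deposited the median was -0.24. A difference of at least 1 in either direction, on this scale a doubling or halving, was found for 11.5%, with 3435 higher and 4890 lower in P. The most abundant transcript cluster was the first in both periods. This was Cluster-64249.125422, singled out after its values were seen. It stood at 3578, 3081 and 4696 rescaled TPM in B replicates 1, 2 and 3 and at 3964, 4792 and 3208 in P. Its groups overlapped (difference 0.08 ± 0.26 SE, adjusted p = 0.928, limma). Of the 100 transcript clusters with the highest mean in B, 70 were also among the 100 highest in P. The union of both lists held 130, of which 123 were compared, and 12 of those were called higher in P and 1 lower.

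Against a spread pooled over all 15 libraries, 536 transcript clusters were called different, 0.742% of those compared. Of the 536, 400 were higher in P (0.554%) and 136 lower (0.188%). The pooled spread is not that of the P and B libraries alone and is taken as equal in every library. A fit on those 6 libraries called 25. The test was limma on all 15 libraries with Benjamini-Hochberg adjustment, called at an adjusted p under 0.05. The balance of 74.6% higher turned with the scaling: on the TPM as deposited 221 were higher and 359 lower, or 38.1% higher. All 136 lower calls and 221 of the 400 higher calls held on the deposited scale. The balance also differed between filters. With a value of at least 1 TPM in at least 3 of the 15 libraries as the filter, 457 were higher and 455 lower. With a value above 0 in at least 1 of the 6 libraries, 234 were higher and 222 lower. With a mean of at least 10 rescaled TPM, 392 were higher and 151 lower, or 72.2% higher.

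**Figure D2:**
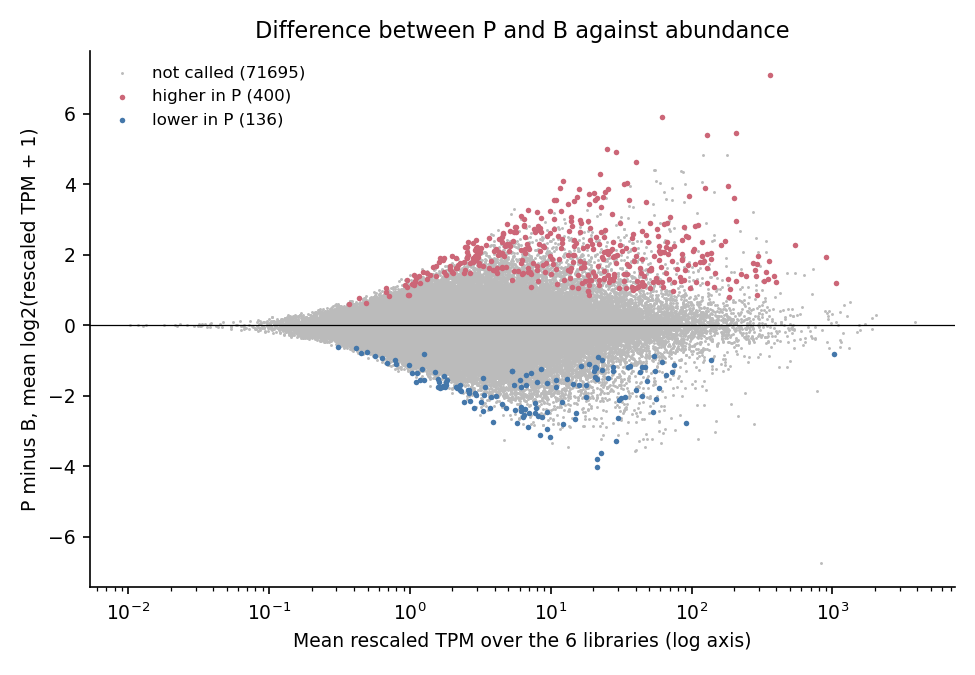
Each point is 1 of the 72231 compared transcript clusters, with its mean rescaled TPM over the 6 libraries on a log axis and its difference, P minus B, in mean log2(rescaled TPM + 1). The 400 called higher in P (red) and the 136 called lower (blue) lie at the rim of the cloud, and the narrow left end shows how the added 1 shrinks low transcript clusters.

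Abundant transcript clusters were called more often, and those called were mostly higher in P. Of the 831 with a mean of at least 100 rescaled TPM over the 6 libraries, 50 were called, or 6.02%, of which 48 were higher in P and 2 lower. From 10 to 100, 244 of 12226 were called, or 2.00%, with 194 higher and 50 lower. From 1 to 10 the share was 0.528% of 41859, with 147 higher and 74 lower, and under 1 it was 0.121% of 17315, with 11 higher and 10 lower. The median difference over all transcript clusters of a class followed the same order only in part. It was 0.06 for at least 100, -0.01 from 10 to 100, -0.11 from 1 to 10 and -0.04 under 1. Low values have little room on the log2(rescaled TPM + 1) scale, so these shares do not rank the classes by how often they changed.

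The 400 higher in P held 2.55%, 2.41% and 3.12% of TPM in P replicates 1, 2 and 3, and 1.03%, 0.915% and 0.729% in B. The 136 lower in P held 0.138%, 0.139% and 0.182% in P and 0.504%, 0.516% and 0.470% in B. Both sets were chosen on these libraries, so the shares describe them and test nothing. The size of the difference had a median of 1.91 among the higher ones, from 0.61 to 7.10, and of 1.72 among the lower ones, from 0.62 to 4.04. The 7.10 came from a transcript cluster at 14.4, 248.2 and 1884 rescaled TPM in P replicates 1, 2 and 3, so that P replicate 3 held 87.8% of its P sum, and at 0 to 0.702 in B. It was picked out after its values were seen. The size was at least 2, a 4-fold change on this scale, for 179 of the 400 and 46 of the 136. It was at least 4 for 11 higher and 1 lower. The 11 had a median of 1.33 rescaled TPM in B and 65.5 in P. The transcript clusters with the largest rises were near the bottom of the scale in B and well expressed in P. Part of this follows from the selection, as a difference of at least 4 needs a raised level in P even from 0 in B.

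By the naming rule, the clearest rise was that of Cluster-64249.55412, which had the widest gap between the lowest P and the highest B library. It stood at 168.4, 127.5 and 72.1 rescaled TPM in P replicates 1, 2 and 3 and at 0.307, 2.01 and 0.827 in B replicates 1, 2 and 3. Every P library lay far above every B library. The G, R and Y libraries, from 0.0877 to 3.14, lay at the level of B, so that it was high in P among the 5 periods. The difference was 5.92 ± 0.49 (SE, adjusted p = 0.000254, limma), with means of 122.7 ± 48.3 in P and 1.05 ± 0.875 in B (SD, n = 3 each). The naming rule took only calls without overlap. For each named transcript cluster, the lack of overlap and an adjusted p under 0.05 were thus fixed by the choice.

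The most abundant of the higher ones was Cluster-64249.127367. Its level was 1685, 1207 and 1568 rescaled TPM in P replicates 1, 2 and 3 and 551, 726 and 649 in B. The periods did not overlap, and all 9 G, R and Y libraries, from 799 to 1467, lay above B and in part within the range of P. The difference was 1.21 ± 0.22 (SE, adjusted p = 0.0207, limma). On the TPM as deposited it was 0.92 with an adjusted p of 0.0632, and the call was also lost without B replicate 2 (0.0543), B replicate 3 (0.0840) or P replicate 1 (0.0626).

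Among those lower in P, the widest gap was that of Cluster-64249.121619. It stood at 21.3, 18.7 and 28.2 rescaled TPM in P replicates 1, 2 and 3 and at 189.7, 127.8 and 165.2 in B. P lay wholly below B. G was low as well, at 39.7, 11.8 and 12.9, while R ran from 146.5 to 163.0 and Y from 157.8 to 291.4. Low levels were thus shared by P and G, and high levels by B, R and Y. The difference was -2.77 ± 0.37 (SE, adjusted p = 0.00355, limma), with means of 22.7 ± 4.88 in P and 160.9 ± 31.2 in B (SD, n = 3 each).

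The most abundant of the lower ones was Cluster-64249.125771, at 719.8, 610.5 and 905.7 rescaled TPM in P replicates 1, 2 and 3 and at 1308, 1345 and 1232 in B. The P libraries all lay below the B libraries and within or next to the range of Y, from 652 to 875. The G libraries lay far lower, from 42.6 to 51.3. The difference was -0.81 ± 0.17 (SE, adjusted p = 0.0395, limma). This call sat close to the threshold: it was lost in 17 of 28 alternatives, with adjusted p from 0.0110 to 0.491. Leaving out B replicates 1, 2 and 3 gave 0.0678, 0.143 and 0.114, and leaving out P replicates 1 and 2 gave 0.0888 and 0.1. It was also lost without G replicates 2 and 3 (0.0503 and 0.0535), R replicates 1, 2 and 3 (0.0676, 0.0696 and 0.0652) and Y replicates 1 and 3 (0.0626 and 0.0514).

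**Figure D3:**
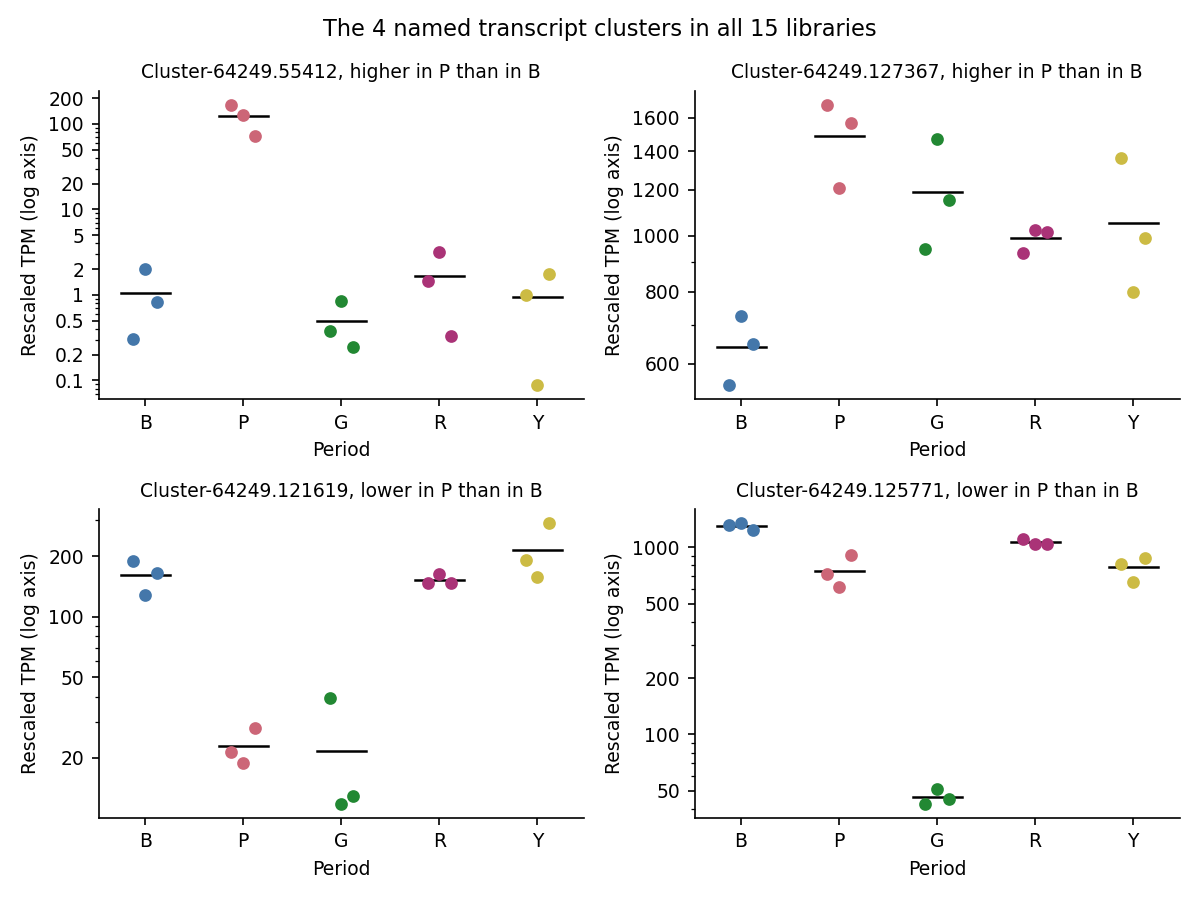
Points give the rescaled TPM of the 4 named transcript clusters in each of the 15 libraries on a log axis, with a line at the mean of each period of 3 libraries. Cluster-64249.55412 is high in the 3 P libraries, Cluster-64249.127367 is lowest in B, Cluster-64249.121619 is low in P and G, and Cluster-64249.125771 is lower in P than in B and lowest in G.

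The 10 widest gaps in each direction, among called transcript clusters with a mean of at least 10 in P or B, were of unequal size. The 10 higher in P, among them the uneven one at 7.10, differed by 3.63 to 7.10, with a median of 0.922 rescaled TPM in B and 60.3 in P. The 10 lower in P differed by 2.10 to 4.04 in size, with a median of 33.9 in B and 2.72 in P. Among these called transcript clusters the widest gaps were larger upward, at 2.98 to 4.60, than downward, at 1.56 to 2.14. Differences of at least 2 without overlap that were not called, 179 upward and 202 downward, lie outside both lists. The rule, which asks for a value in at least 5 of 6 libraries, leaves out any that one period lacks altogether. It left out more of those absent from P: 66 stood at 10 TPM or more in each B library and at 0 in P. The reverse held for 15, so the order of the gaps is limited to the called ones among the compared transcript clusters.

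The G, R and Y libraries entered the choice of calls through the scaling and the estimate of the spread. With factors from the 6 P and B libraries, 461 were called, 339 higher and 122 lower. The higher and the lower calls differed in where the G, R and Y levels lay. For the 400 higher in P, the median level was 24.5, 25.1 and 26.6 rescaled TPM in P replicates 1, 2 and 3 and 4.83, 4.12 and 3.81 in B. It ran from 7.70 to 10.5 over the 9 other libraries, nearer to B. The period mean on the log2 scale lay nearer to B than to P for 259 of the 400 in G, 276 in R and 268 in Y. It lay between the B and P means for 193 in G, 217 in R and 233 in Y, and outside them for the rest. The shares of such positions over all compared are not given, so these counts only describe the calls. In 241, or 60.2%, every P library lay above all 12 other libraries, and in 94, or 23.5%, every B library lay below all 12 others. Over the 4558 transcript clusters with P wholly above B, called or not, these shares were 28.1% and 12.7%.

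For the 136 lower in P, the periods fell on both sides. The median level was 1.13, 1.52 and 2.76 rescaled TPM in P replicates 1, 2 and 3 and 9.88, 11.8 and 11.6 in B. It was 3.22 to 3.37 in G, 6.13 to 6.62 in Y and 7.23 to 9.08 in R. G lay nearer to P for 92 of the 136 and R nearer to B for 86, while Y lay nearer to P for 74 and to B for 62. The period mean lay between the B and P means for 51 in G, 87 in R and 68 in Y. In 63, or 46.3%, every B library lay above all 12 others, and in 43, or 31.6%, every P library lay below all 12 others. Over the 5417 with P wholly below B, these shares were 19.4% and 11.1%. Shares over all compared are not given for the nearer and between counts here either. The B and P levels of both sets were chosen to lie apart, so all these counts are a description with no test.

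**Figure D4:**
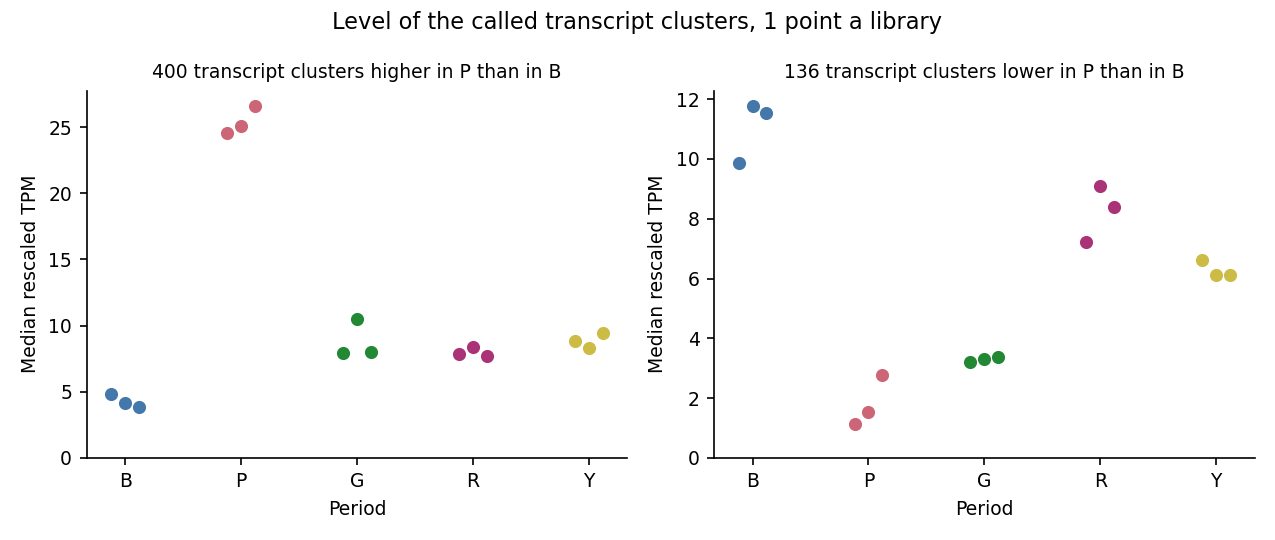
Each point is the median rescaled TPM in 1 library over the 400 transcript clusters called higher in P (left) or the 136 called lower (right). The medians of the 9 G, R and Y libraries lie between B and P in both panels. They are at 7.70 to 10.5 on the left, and on the right near P in G and nearer to B in R. Single transcript clusters mostly differ from this: all 9 libraries lay inside the gap between B and P for 3 of the 400 and 1 of the 136.

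Agreement between replicates was poorer in P than in B. The SD over 3 libraries, on the log2 scale, was larger in P than in B for 66.5% of the compared transcript clusters, with a median of 0.54 in P and 0.38 in B. The root mean square difference between library pairs was 1.32 for P replicates 1 and 2, 1.17 for P replicates 1 and 3 and 0.956 for P replicates 2 and 3. It was 0.759 to 0.835 within B. Over the 9 pairs of a P with a B library it ran from 0.789 to 1.28, so over all compared transcript clusters P replicates 1 and 2 differed more from each other than any P library did from any B library. P replicate 3 lay nearer to each B library, at 0.789, 0.870 and 0.889, than to either other P library. Neither order held in full with a mean of at least 10 rescaled TPM. There P replicates 1 and 2 differed by 1.44, and P replicate 1 differed by 1.45 from B replicate 2 and by 1.48 from B replicate 3. P replicate 3 differed by 1.05 from P replicate 2 and by 0.965, 1.049 and 1.09 from B replicates 1, 2 and 3. The within-B pairs ran from 0.755 to 0.893.

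Detection followed the same order. Of the 87430 transcript clusters above 0 in all 3 B libraries, 40.6% were listed at 0 in P replicate 1, 28.5% in P replicate 2 and 12.9% in P replicate 3. Of the 52027 above 0 in all 3 P libraries, 6.97% to 10.8% were listed at 0 in a B library. Among the compared transcript clusters, 42490 had a value in all 6 libraries and 29741 had a single 0, which lay in P replicate 1 for 15784, or 53.1%. Just outside the rule, 34273 had a value in exactly 4 of the 6, with a median mean of 0.648 TPM, against 1.195 for those with exactly 5. TPM keeps no read number, so the depth behind these zeros is unknown.

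All 3 P libraries lay above all 3 B libraries for 4558 transcript clusters, 6.31% of those compared, and below them for 5417, 7.5%. On the TPM as deposited these were 2370 (3.28%) and 10382 (14.4%). All 400 higher and all 136 lower calls were without overlap, and 223 of the 400 and 53 of the 136 had a gap of at least 1 between the nearest P and B library. A listed 0 lay in a P library for 66 of the 136 and in a B library for 81 of the 400. Of all 72231 compared, 29741 had a single 0, which lay in a P library for 23811. Calls were chosen on difference against spread, and the share with such a gap over all compared is not given, so these counts only describe them. One library held over 80% of the P sum in 2 of the 400. Many large differences were not called: of the 440 with a difference of at least 2 upward, 261 missed the threshold, and of the 390 downward, 344 missed it. The 344 had a median SD of 1.67 in P, against 0.74 among the 46 downward ones that were called, and of 0.62 in B, against 0.42. For the 261 upward ones missed, the larger spread was in B, with a median SD of 1.17 in B and 0.87 in P, against 0.49 and 0.52 among the 179 called. The largest of all downward differences was among those missed. Cluster-64249.132825, singled out after its values were seen, stood at 50.5, 2217 and 2687 rescaled TPM in B replicates 1, 2 and 3 and at 4.83, 2.51 and 10.97 in P. The groups did not overlap, but B replicate 1 lay far below the other B libraries (difference -6.75 ± 1.56 SE, adjusted p = 0.0666, limma). Its level also scattered within the other periods, which enter the SE. It ran from 94.6 to 1048 in R, from 4.09 to 211 in Y and from 1.44 to 25.5 in G.

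The count of calls moved with the libraries used and with the weights given to them. A fit on the 6 P and B libraries alone called 25, of which 23 were higher in P and 2 lower, and all 25 were among the 536. Weighting each library by its own spread gave 249 higher and 48 lower. The weights, low where a library scattered more, were 0.277, 0.470 and 1.02 in P replicates 1, 2 and 3. They were 0.718 to 1.23 in B, 0.514 to 1.70 in G and 1.14 to 1.85 in R and Y. Without P replicate 3 the counts were 627 higher and 536 lower, 1163 in all. Without B replicates 2 and 3 they were 161 and 28, 189 in all, and 105 and 24, 129 in all. Without R replicates 1 and 2 the totals were 352 and 339. The lower count alone also moved by over 1.5 times without B replicate 1 (268), R replicates 1 and 2 (74 and 68) and Y replicates 1, 2 and 3 (82, 82 and 84). Of the 536, 107 held the call in each of the 6 fits that left out 1 P or B library, 89 higher and 18 lower, and the same 107 held it in all 15 leave-outs.

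**Figure D5:**
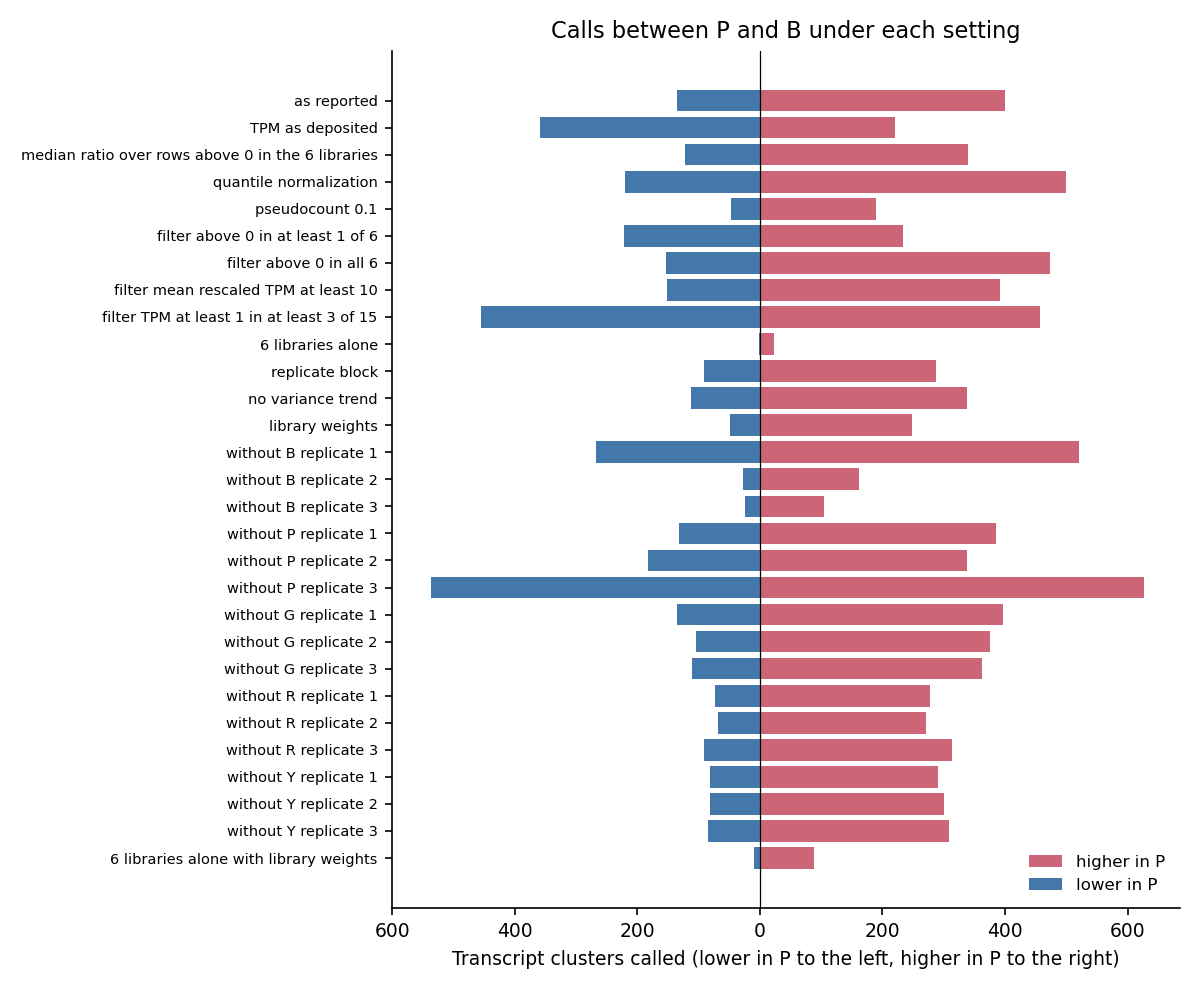
Bars give the number of transcript clusters called higher in P (red, to the right) and lower in P (blue, to the left) as reported and under each of 28 alternatives. The balance of 400 against 136 turns on the TPM as deposited, at 221 against 359, and the fit on 6 libraries alone leaves 23 against 2.

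Transcript clusters that one period lacked were counted outside the rule, over the whole table. At 1 TPM or more in all 3 B libraries and listed at 0 in all 3 P libraries there were 1062, with a median mean of 3.50 TPM, and 66 of them reached 10 TPM in each B library. The reverse, at 1 TPM or more in all 3 P libraries and listed at 0 in B, held for 184, with a median mean of 4.57 TPM, and for 15 at 10 TPM. Most were not particular to their period: 65 of the 1062 and 30 of the 184 were listed at 0 in all G, R and Y libraries as well. A value in all 3 P libraries includes P replicate 1, which had the fewest detected. How far this sets the excess of B was not tested.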

How the data were processed

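RNA of fruit wall was sequenced in 15 libraries, 3 from each of 5 periods. The unit of the single table deposited by the authors is TPM, which its name states and its column sums fit; each of the 15 columns matched a library by title. How it was assembled, aligned and quantified is not given in the sources used here. GRCm38 and mm10, both mouse builds, appear in the submitters' processing notes, and no identifier refers to either. TPM keeps no depth, so no counting interval is given.

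Rows above 0 in at least 5 of the 6 P and B libraries were kept, rescaled by median ratio and transformed to log2(value + 1). The main test was limma 3.58.1 (R 4.3.3) with 5 period means, all 15 libraries, a mean-variance trend and Benjamini-Hochberg adjustment, at 0.05. It was also run on simulated data with normal noise of equal spread in every library, which does not mimic the uneven P libraries. Single values per library used an exact two-sided permutation test. Tables and figures used Python 3.11.15, pandas 2.3.3, NumPy 2.4.6 and matplotlib 3.10.9.

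The naming rule took, in each direction, among calls without overlap and with a mean of at least 10 in P or B, the 1 with the widest gap between libraries and the 1 with the highest mean. The members, the rule and the tests were chosen with earlier results of these data known. Alternatives changed the scaling, pseudocount, filter, samples, block, trend and weights, and left out each library. With no gene names, gene lists were not analysed here.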

Additional observations from a re-analysis of the deposited data

How the results depend on the processing

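Of 28 alternatives, the fit on 6 libraries with weights was chosen after seeing the data. The total of 536 calls became 237 with a pseudocount of 0.1 (190 higher and 47 lower), 912 with at least 1 TPM in at least 3 libraries (457 and 455), 25 in the fit on 6 libraries (23 and 2), 297 with library weights (249 and 48) and 98 in the fit on 6 libraries with weights (88 and 10). The split, but not the total, moved by over 1.5 times on the TPM as deposited (221 and 359) and above 0 in at least 1 of 6 libraries (234 and 222), and the lower count rose to 220 with quantile normalization. The cause of these shifts was not tested. Leaving out 1 library gave totals from 129 to 1163, 105 to 627 higher and 24 to 536 lower. The remaining settings kept the total and both directions within 1.5 times. The median difference ran from -0.24 to 0.09. For the number detected at 1 TPM or more the exact permutation p was 0.2. With 3 against 3 this test allows no p below 0.1, so it cannot reach 0.05.

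The replicate numbers are shared by the labels, but same-numbered B and P libraries hardly deviated together (correlations of 0.06, 0.02 and 0.03 over the compared transcript clusters), so they were not taken as pairs. With the replicate block 379 were called, 288 higher and 91 lower. Cluster-64249.55412 and Cluster-64249.121619 kept their call in all 28 alternatives, Cluster-64249.127367 in 20 and Cluster-64249.125771 in 11, each with its direction. The unknown read depth limits what the zeros in P show.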
